A study of Mus musculus with 30 samples.

Results

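The mevalonate arm of cholesterol synthesis was followed through the mRNA of 9 enzymes that act between acetyl-CoA and squalene: Acat2, Hmgcs1, Mvk, Pmvk, Mvd, Idi1, Fdps, Ggps1 and Fdft1. The genes were taken by symbol as steps of the pathway. Each of the 9 was found as 1 row in each of the 2 deposited count tables, among 23703 gene symbols that the tables share, and all 9 were kept by the filter on low counts in both tables. Acat2 is here acetyl-CoA acetyltransferase 2, a thiolase, and not the cholesterol-esterifying enzyme that goes by the same abbreviation.

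The mRNA measured came from 2 kinds of primary mouse cells, macrophages elicited with thioglycollate and hepatocytes, by sequencing of polyadenylated RNA. All 12 groups, vehicle included, were first held for 24 h in 10% lipid-deficient serum under the statin mevastatin at 10 uM, which blocks mevalonate synthesis, with mevalonate itself given back at 50 uM, and the ligand then acted for 18 to 20 h without a return of serum lipids. In each cell type the groups were desmosterol at 10 uM, DMHCA at 1 uM, MePipHCA at 1 uM, GW3965 at 1 uM, T0901317 at 1 uM, and vehicle (DMSO / EtOH), in 3 libraries of each macrophage group and 2 of each hepatocyte group. Desmosterol is a late intermediate of cholesterol synthesis, DMHCA and MePipHCA are cholenamides with different amides, made as mimetics of desmosterol, the kind of compound the study's title names, and GW3965 and T0901317 are synthetic agonists of the liver X receptors (LXR). No strain, sex or age is given in the labels used here. Macrophages were kept in RPMI and hepatocytes in Hepatozyme, and the sample titles carry a different date for each, so that cell type, medium and date cannot be told apart. Nothing in the labels says that replicates were separate animals or separate cultures; a p-value here speaks of the spread among the libraries of a group, and that spread may be technical.

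The pathway condenses acetyl-CoA into a branched precursor, reduces it to mevalonate, and adds phosphates before a decarboxylation yields the isoprene units. The units are joined head to tail into farnesyl diphosphate, which stands at a branch point: squalene synthase commits it to sterols, and geranylgeranyl diphosphate synthase extends it toward the lipids that anchor small GTPases in membranes. Transcription of most of these enzymes is known to be driven by the factor SREBP-2, which is released from the endoplasmic reticulum when membranes lack sterol and held there when sterols are plentiful. Lipid-deficient serum with a statin is a common means of raising the pathway in culture.

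In macrophages the 3 sterols lowered 7 of the 9 mRNAs, from the thiolase Acat2 to the farnesyl diphosphate synthase Fdps. The 2 synthetic LXR agonists lowered 1 of the 9, Hmgcs1, by less. Of all genes, 4.57%, 5.9% and 18.3% were lower with desmosterol, DMHCA and MePipHCA, and 6.69% and 6.55% with GW3965 and T0901317. Group means of the 7 genes from Acat2 to Fdps were 16.5% to 47.5% of vehicle with desmosterol, 24.3% to 45% with DMHCA and 8.41% to 28.6% with MePipHCA. The last enzymes of the list behaved otherwise, as Ggps1 was not called with any ligand and Fdft1 was not called with desmosterol and higher with the other 4. The last exon of Fdft1 shares 774 bases with Ctsb, an abundant mRNA of macrophages. The part of Ctsb in the Fdft1 values was not tested. In hepatocytes MePipHCA lowered 7 of the 9 mRNAs (all genes: 1.38% lower), to between 50.2% and 66.8% of vehicle, and Fdft1 was among them. Desmosterol and DMHCA changed none of the 9 in hepatocytes at an adjusted p of 0.05 in edgeR. Few genes of any kind were called there, 0.159% lower and 0.205% higher with desmosterol and 0 of 13176 with DMHCA. Of the 9 members, 4 and 2 had an unadjusted p below 0.05, and DESeq2 called 1 with desmosterol (Hmgcs1) and 0 with DMHCA.

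**Figure D1:**
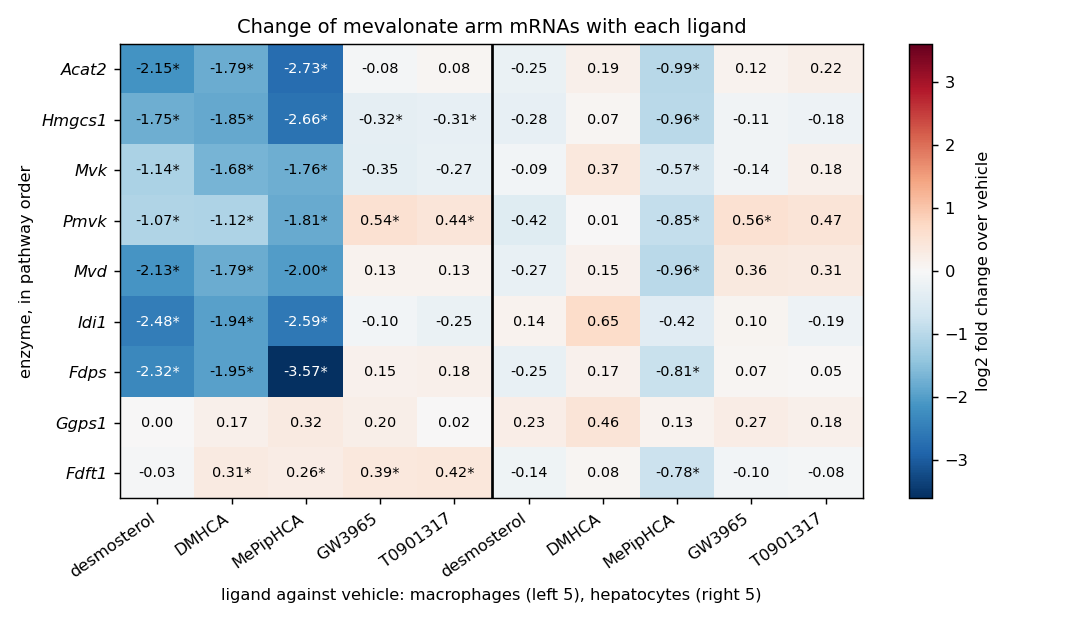
Each cell holds the log2 fold change of 1 enzyme (rows, in pathway order) for 1 ligand against vehicle (columns, macrophages left of the line and hepatocytes right of it), with a star where the adjusted p is below 0.05. In macrophages the 3 sterols carry stars from Acat2 to Fdps, with changes from -1.07 for Pmvk with desmosterol to -3.57 for Fdps with MePipHCA, and in hepatocytes the stars are in the MePipHCA column and at Pmvk with GW3965.

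Libraries held 3862655 to 15685961 exon counts in macrophages and 6627812 to 18626562 in hepatocytes. Depth went with group in macrophages, where vehicle and desmosterol libraries held 9748589 to 15685961 counts. Libraries of DMHCA, MePipHCA, GW3965 and T0901317 held 3862655 to 8886528, save replicate 3 of T0901317 at 11453003. In a chi-square comparison of counts between libraries of a group, replicate 2 of macrophage desmosterol stood apart, at 7.28 and 7.36 per degree of freedom from replicates 1 and 3, which differed by 2.09, and the pairs of the other macrophage groups by 1.37 to 3.67. Without that library 7 of the 9 members were still lower with desmosterol, and 882 genes were called in place of 1097. The hepatocyte pairs differed by 5.55 to 12.7, most with DMHCA. Levels are given as CPM, each count scaled to its library's total after correction by TMM factors. The labelled cell types were borne out by their markers as the main cells: 8 macrophage markers summed to 16004 to 16081 CPM in vehicle macrophages, where 8 hepatocyte markers summed to 0.169 to 0.646 CPM with 5 of them at 0, and the hepatocyte markers summed to 28082 to 32633 CPM in vehicle hepatocytes. Vehicle hepatocytes also held macrophage markers, which summed to 353 to 382 CPM with none at 0. Abca1, the cholesterol exporter that LXR drives, served as the check that ligands acted. In macrophages it was higher with all 5 ligands, by a log2 fold change of 2.99 ± 0.05 with desmosterol to 4.33 ± 0.05 with T0901317. In hepatocytes Abca1 was higher with GW3965 (2.24 ± 0.09) and T0901317 (2.40 ± 0.09), lower with MePipHCA (-0.78 ± 0.09), and not called with desmosterol (0.21 ± 0.09) or DMHCA (-0.09 ± 0.09).

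Promoters are shown for Hmgcs1 and Mvd, which fell with every sterol in macrophages, for Mvk, which shares its upstream region with a neighbour that also fell, and for Ggps1, which did not. Each line holds the 250 bases before the annotated start, 5′ to 3′ in the direction of transcription, taken from RefSeq on GRCm38.p6, whose start for Mvk and Ggps1 lies upstream of that in the macrophage table, in lower case with matches to 3 motifs in capitals. The motifs, searched on both strands, were TCACNCCAC, the letters of the sterol element of the LDL receptor gene, CCAAT, the box bound by NF-Y, and GGGCGG, the GC box bound by Sp1; no matches overlap in the 4 windows.
Hmgcs1 promoter, chr13:119690101-119690350, plus strand: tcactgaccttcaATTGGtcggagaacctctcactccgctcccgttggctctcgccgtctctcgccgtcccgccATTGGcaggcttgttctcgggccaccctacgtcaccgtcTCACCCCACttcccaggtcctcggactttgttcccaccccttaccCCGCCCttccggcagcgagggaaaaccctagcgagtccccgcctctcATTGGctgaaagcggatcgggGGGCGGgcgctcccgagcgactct
Mvk promoter, chr5:114444019-114444268, plus strand: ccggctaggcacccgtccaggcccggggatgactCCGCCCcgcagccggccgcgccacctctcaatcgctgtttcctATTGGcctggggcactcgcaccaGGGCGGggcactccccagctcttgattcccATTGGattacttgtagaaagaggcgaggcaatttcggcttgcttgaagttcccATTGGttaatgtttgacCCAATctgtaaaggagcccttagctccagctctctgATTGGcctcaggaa
Mvd promoter, chr8:122443423-122443672, minus strand: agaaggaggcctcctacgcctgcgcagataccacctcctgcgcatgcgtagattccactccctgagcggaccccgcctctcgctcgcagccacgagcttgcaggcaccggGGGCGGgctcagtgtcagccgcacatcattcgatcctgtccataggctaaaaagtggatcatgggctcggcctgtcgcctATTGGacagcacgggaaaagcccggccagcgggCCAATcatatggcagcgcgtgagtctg
Ggps1 promoter, chr13:14063489-14063738, minus strand: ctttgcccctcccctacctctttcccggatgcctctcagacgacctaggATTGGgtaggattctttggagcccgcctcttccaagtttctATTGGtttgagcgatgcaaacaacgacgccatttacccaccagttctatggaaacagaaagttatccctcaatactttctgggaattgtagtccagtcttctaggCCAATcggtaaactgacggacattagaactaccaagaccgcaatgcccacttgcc
The window of Hmgcs1 holds 1 match to TCACNCCAC, beginning 137 bases before the start, with 3 CCAAT and 2 GGGCGG matches. Windows of Mvk, Mvd and Ggps1 hold 5, 2 and 3 matches to CCAAT, 2, 1 and 0 to GGGCGG, and none to TCACNCCAC. Of the windows not printed, that of Acat2 holds 0 CCAAT and 1 GGGCGG, and that of Idi1 2 CCAAT and 1 GGGCGG. Of 2 windows of Pmvk the upstream one holds 1 CCAAT and the other 0, with no GGGCGG in either. None of these windows holds TCACNCCAC. The upstream Pmvk window ends at 89454540, before the counted transcript's start at 89459118, and the other, 89459321 to 89459570, lies inside that transcript. Bases just before that start were not searched. Of 32851 mouse promoters of the same length in this table, 1.05% hold TCACNCCAC, 33.8% CCAAT and 32.7% GGGCGG. A match is a run of letters and was not tested as a binding site. RefSeq windows were at hand for 7 of the 9 genes.

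Counts of calls are set beside the share of all genes called in the same direction. With desmosterol in macrophages 7 of the 9 enzymes were lower and 0 higher, where 4.57% of 11544 genes were lower and 4.93% higher; the median log2 fold change of the 9 was -1.75. With DMHCA 7 were lower and 1 higher (all genes: 5.9% lower, 5.8% higher), with a median of -1.79. With MePipHCA 7 were lower and 1 higher (all genes: 18.3% lower, 17.2% higher), with a median of -2.0. The medians over all genes tested were within 0.01 of 0 in these comparisons. The 3 sterol groups share the same vehicle libraries. All tests against vehicle are edgeR quasi-likelihood tests with Benjamini-Hochberg adjustment over all genes of the comparison, and changes are log2 fold changes ± SE.

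**Figure D2:**
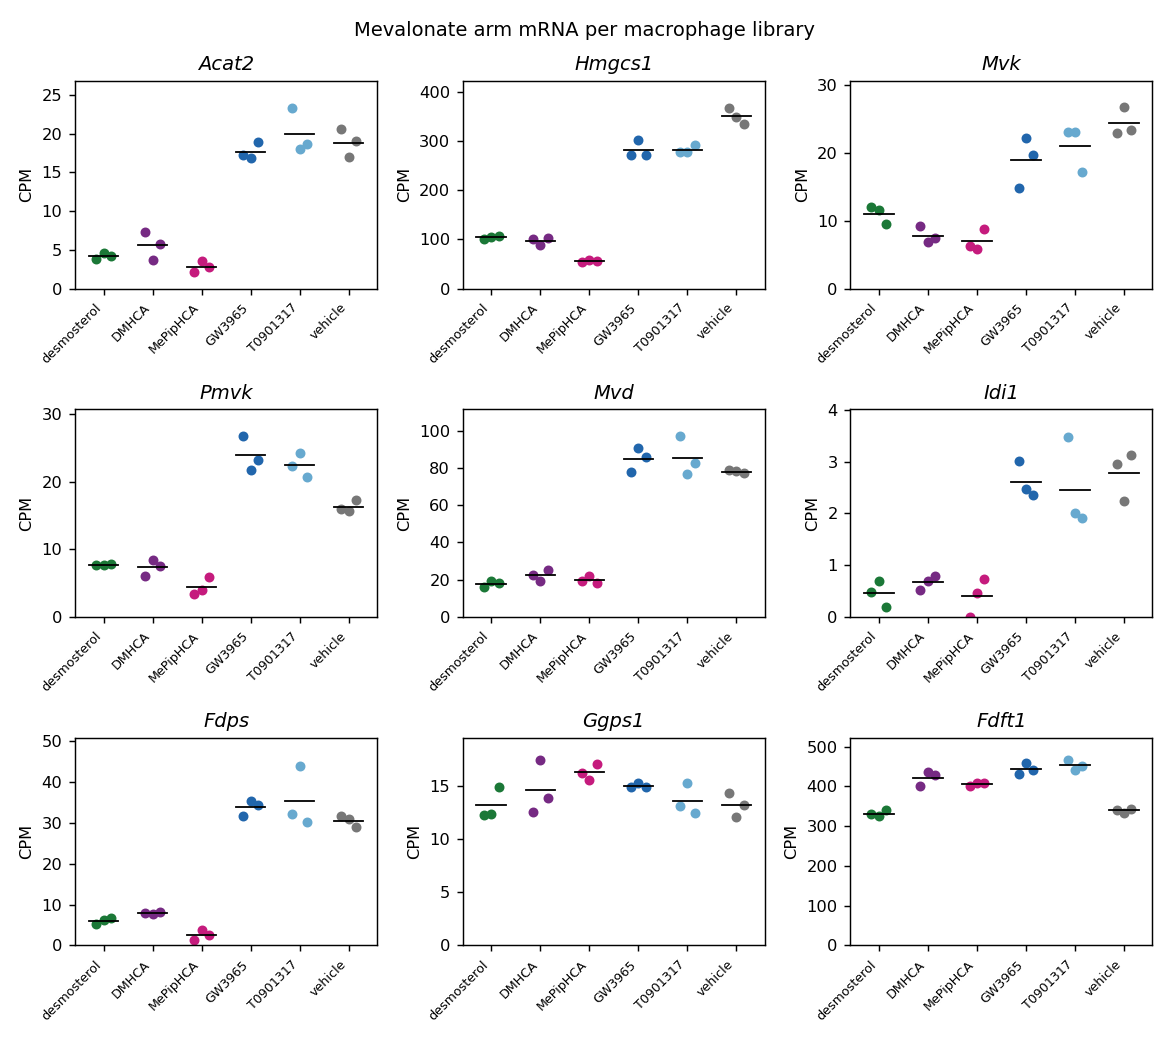
Level of each enzyme in CPM (y axis, linear from 0) in every macrophage library by ligand (x axis, 3 points per group, bar at the mean). From Acat2 to Fdps all 9 sterol-treated libraries lie below all 3 vehicle libraries, while Ggps1 with desmosterol, DMHCA and T0901317 overlaps vehicle and with MePipHCA and GW3965 lies above it, and Fdft1 has its lowest means with desmosterol and vehicle.

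Acat2 (chr17:12943042-12960725, minus strand, mm10) joins 2 acetyl-CoA molecules into acetoacetyl-CoA, the entry to the arm. In macrophages Acat2 had 3.77, 4.59 and 4.25 CPM with desmosterol, 7.33, 3.67 and 5.74 CPM with DMHCA and 2.17, 3.54 and 2.79 CPM with MePipHCA, against 20.6, 16.9 and 19.0 CPM with vehicle. All sterol-treated libraries lay below all vehicle libraries, and MePipHCA lay below desmosterol and DMHCA, which overlapped each other. Changes against vehicle were -2.15 ± 0.16 with desmosterol, -1.79 ± 0.17 with DMHCA and -2.73 ± 0.20 with MePipHCA, with adjusted p-values of 2.51e-14, 1.18e-10 and 1.43e-14 (edgeR). Acat2 had 17.3, 16.9 and 19.0 CPM with GW3965 and 23.3, 18.0 and 18.7 CPM with T0901317, which overlapped vehicle. In hepatocytes the gene had 89.3 and 72.7 CPM with desmosterol, 111 and 108 CPM with DMHCA, 49.1 and 47.5 CPM with MePipHCA, 104 and 105 CPM with GW3965 and 109.7 and 114 CPM with T0901317, against 94.6 and 97.5 CPM with vehicle. Only the fall with MePipHCA, -0.99 ± 0.11, was called (adjusted p = 8.58e-07, edgeR).

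Hmgcs1 (chr13:119690351-119708260, plus strand), the cytosolic HMG-CoA synthase, adds a further acetyl unit. In macrophages Hmgcs1 had 102, 106 and 107 CPM with desmosterol, 101, 88.7 and 103 CPM with DMHCA and 53.1, 58.5 and 55.7 CPM with MePipHCA, against 369, 351 and 336 CPM with vehicle. The 9 sterol-treated libraries formed 2 steps, with MePipHCA lowest and DMHCA and desmosterol overlapping above it. Changes were -1.75 ± 0.06 with desmosterol, -1.85 ± 0.06 with DMHCA and -2.66 ± 0.07 with MePipHCA, that is 3.35-, 3.6- and 6.31-fold lower than vehicle. Hmgcs1 was also the member of the 9 that both synthetic agonists lowered in macrophages. It had 272, 302 and 272 CPM with GW3965 and 279, 278 and 293 CPM with T0901317, all 6 libraries below the vehicle libraries. These smaller changes were -0.32 ± 0.05 with GW3965 (adjusted p = 2.6e-05, edgeR) and -0.31 ± 0.06 with T0901317 (adjusted p = 4.56e-05, edgeR). In hepatocytes Hmgcs1 had 1048 and 1089 CPM with desmosterol, 1279 and 1443 CPM with DMHCA, 637 and 697 CPM with MePipHCA, 1216 and 1191 CPM with GW3965 and 1119.7 and 1173 CPM with T0901317, against 1226 and 1377 CPM with vehicle. The fall with MePipHCA was -0.96 ± 0.08 (adjusted p = 7.56e-09, edgeR). With desmosterol it was -0.28 ± 0.08, not called in edgeR (adjusted p = 0.148) and called in DESeq2 (adjusted p = 0.0455), with both libraries below both vehicle libraries.

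Mvk (chr5:114444306-114460590, plus strand) encodes mevalonate kinase, which adds the first phosphate to mevalonate. In macrophages Mvk had 12, 11.6 and 9.51 CPM with desmosterol, 9.17, 6.81 and 7.48 CPM with DMHCA and 6.28, 5.90 and 8.80 CPM with MePipHCA, against 23.0, 26.8 and 23.5 CPM with vehicle. DMHCA and MePipHCA overlapped each other and lay below desmosterol, which lay below vehicle. Changes were -1.14 ± 0.13 with desmosterol, -1.68 ± 0.16 with DMHCA and -1.76 ± 0.17 with MePipHCA. With the synthetic agonists Mvk had 14.9, 22.2 and 19.7 CPM with GW3965 and 23.1, 23.1 and 17.2 CPM with T0901317. GW3965 libraries lay below vehicle without passing the test (-0.35 ± 0.13, adjusted p = 0.0814, edgeR). In hepatocytes Mvk had 34.2 and 30.5 CPM with desmosterol, 48.6 and 40.3 CPM with DMHCA, 22.3 and 23.8 CPM with MePipHCA, 29.1 and 33.2 CPM with GW3965 and 41.4 and 36.0 CPM with T0901317, against 32.1 and 36.9 CPM with vehicle. Its change with MePipHCA, -0.57 ± 0.15, was the weakest of the 7 called there (adjusted p = 0.0387, edgeR). The call was lost without any 1 of the 4 libraries compared, with adjusted p-values of 0.0855 to 0.289.

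Pmvk (chr3:89459118-89469009, plus strand) encodes phosphomevalonate kinase, which adds the next phosphate, and was the member that moved in opposite directions with sterols and synthetic agonists. In macrophages Pmvk had 7.73, 7.65 and 7.89 CPM with desmosterol, 6.02, 8.38 and 7.61 CPM with DMHCA and 3.46, 4.01 and 5.87 CPM with MePipHCA, against 16.0, 15.7 and 17.3 CPM with vehicle. Its falls of -1.07 ± 0.13 with desmosterol, -1.12 ± 0.15 with DMHCA and -1.81 ± 0.17 with MePipHCA were the smallest of the 7 with desmosterol and DMHCA. It had 26.8, 21.8 and 23.2 CPM with GW3965 and 22.3, 24.3 and 20.8 CPM with T0901317, and each of these 6 libraries lay above every vehicle library. The rises were 0.54 ± 0.12 with GW3965 (adjusted p = 0.00106, edgeR) and 0.44 ± 0.12 with T0901317 (adjusted p = 0.0115, edgeR). The T0901317 call was lost without replicate 2 of T0901317 (adjusted p = 0.0542) and without replicate 2 of vehicle (adjusted p = 0.0584).

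In hepatocytes Pmvk had 25.4 and 26.2 CPM with desmosterol, 35.7 and 34.1 CPM with DMHCA, 19.0 and 19.3 CPM with MePipHCA, 50.1 and 52.3 CPM with GW3965 and 50.4 and 45.9 CPM with T0901317, against 35.8 and 33.4 CPM with vehicle. The fall with MePipHCA was -0.85 ± 0.14 (adjusted p = 0.000341, edgeR). Pmvk was the member called with GW3965 in hepatocytes, at 0.56 ± 0.13 (adjusted p = 0.0436, edgeR), and with T0901317 it reached 0.47 ± 0.13 (adjusted p = 0.0854, edgeR). The GW3965 call was lost without any 1 of its 4 libraries, with adjusted p-values of 0.16 to 0.374.

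Mvd (chr8:122433596-122443422, minus strand) encodes mevalonate diphosphate decarboxylase, which yields isopentenyl diphosphate. In macrophages Mvd had 16.2, 19.2 and 18.0 CPM with desmosterol, 22.8, 19.2 and 25.2 CPM with DMHCA and 19.1, 22.2 and 18.0 CPM with MePipHCA, against 79.0, 78.1 and 77.1 CPM with vehicle. The 3 sterol groups overlapped their neighbours in order of level. Changes were -2.13 ± 0.09 with desmosterol, -1.79 ± 0.10 with DMHCA and -2.0 ± 0.10 with MePipHCA. With the synthetic agonists Mvd had 77.9, 90.8 and 86.0 CPM with GW3965 and 97.2, 76.7 and 82.7 CPM with T0901317, overlapping vehicle. In hepatocytes it had 29.1 and 32.2 CPM with desmosterol, 43.0 and 38.6 CPM with DMHCA, 19.4 and 18.5 CPM with MePipHCA, 49.4 and 45.6 CPM with GW3965 and 52.3 and 38.9 CPM with T0901317, against 40.0 and 33.3 CPM with vehicle. The fall with MePipHCA was -0.96 ± 0.16 (adjusted p = 0.000341, edgeR).

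Idi1 (chr13:8885606-8892396, plus strand), the isomerase that makes dimethylallyl diphosphate, was the scarcest of the 9. In macrophages Idi1 had 0.483, 0.689 and 0.202 CPM with desmosterol, 0.524, 0.698 and 0.801 CPM with DMHCA and 0, 0.472 and 0.733 CPM with MePipHCA, against 2.95, 2.25 and 3.12 CPM with vehicle. These levels rest on 5, 9 and 2 counts (desmosterol), 2, 4 and 6 counts (DMHCA), and 0, 2 and 5 counts (MePipHCA), against 32, 36 and 37 counts in the vehicle libraries, so the size of the fall is imprecise. Changes were -2.48 ± 0.40 with desmosterol, -1.94 ± 0.45 with DMHCA and -2.59 ± 0.51 with MePipHCA, and with MePipHCA the 95% interval ran from -3.62 to -1.56. With the synthetic agonists Idi1 had 3.02, 2.47 and 2.36 CPM with GW3965 and 3.47, 2.00 and 1.91 CPM with T0901317, overlapping vehicle. In hepatocytes it had 3.70 and 5.56 CPM with desmosterol, 5.32 and 7.95 CPM with DMHCA, 3.23 and 3.12 CPM with MePipHCA, 3.63 and 5.43 CPM with GW3965 and 3.44 and 4.02 CPM with T0901317, against 5.21 and 3.02 CPM with vehicle, and no change was called. The pair of vehicle libraries spanned both MePipHCA libraries, and the 95% interval for MePipHCA, -1.22 to 0.39, holds the size of fall seen in other members.

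Fdps (chr3:89093588-89101967, minus strand), the farnesyl diphosphate synthase at the branch point, showed the deepest fall of the arm with MePipHCA. In macrophages Fdps had 5.31, 6.20 and 6.78 CPM with desmosterol, 7.86, 7.68 and 8.15 CPM with DMHCA and 1.30, 3.77 and 2.64 CPM with MePipHCA, against 31.8, 30.9 and 28.9 CPM with vehicle. MePipHCA, desmosterol and DMHCA stood in that order without overlap, all below vehicle. Changes were -2.32 ± 0.13 with desmosterol, -1.95 ± 0.15 with DMHCA and -3.57 ± 0.19 with MePipHCA, and the last of these is 11.9-fold lower. With the synthetic agonists Fdps had 31.7, 35.5 and 34.3 CPM with GW3965 and 32.2, 44.1 and 30.2 CPM with T0901317, overlapping vehicle. In hepatocytes it had 74.1 and 70.2 CPM with desmosterol, 108 and 85.5 CPM with DMHCA, 46.4 and 51.8 CPM with MePipHCA, 88.9 and 91.5 CPM with GW3965 and 86.9 and 91.3 CPM with T0901317, against 79.9 and 93.0 CPM with vehicle. The fall with MePipHCA was -0.81 ± 0.12 (adjusted p = 9.26e-05, edgeR).

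Ggps1 (chr13:14052445-14063401, minus strand) encodes geranylgeranyl diphosphate synthase, on the branch that leads to protein prenylation and not to squalene. In macrophages Ggps1 had 12.3, 12.4 and 14.9 CPM with desmosterol, 12.6, 17.5 and 13.9 CPM with DMHCA and 16.2, 15.6 and 17.0 CPM with MePipHCA, against 14.3, 12.1 and 13.2 CPM with vehicle. MePipHCA libraries lay above every library of the other groups but 1 of DMHCA. The change with MePipHCA was 0.32 ± 0.14 (adjusted p = 0.0626, edgeR), and it passed the threshold when only MePipHCA and vehicle were fitted (0.0482) or without replicate 1 of vehicle (0.0454). With desmosterol the change was 0.00 ± 0.12, with a 95% interval of -0.25 to 0.25, which leaves out a fall as deep as that of the 7 earlier members. In hepatocytes Ggps1 had 15.8 and 13.4 CPM with desmosterol, 19.2 and 14.8 CPM with DMHCA, 15.4 and 11.9 CPM with MePipHCA, 13.7 and 16.2 CPM with GW3965 and 13.6 and 14.5 CPM with T0901317, against 11.0 and 14.1 CPM with vehicle, and no ligand gave a call.

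Fdft1 (chr14:63145150-63177793, minus strand) encodes squalene synthase, the step committed to sterols. In macrophages Fdft1 had 329, 325 and 340.0 CPM with desmosterol, 400.3, 435 and 427 CPM with DMHCA, 399.8, 408 and 408 CPM with MePipHCA, 429.8, 459 and 441 CPM with GW3965 and 467, 441 and 450.0 CPM with T0901317, against 341, 334 and 343 CPM with vehicle. Desmosterol libraries overlapped vehicle, while all 12 libraries of the other 4 ligands lay above it. Changes were -0.03 ± 0.05 with desmosterol, 0.31 ± 0.05 with DMHCA, 0.26 ± 0.05 with MePipHCA, 0.39 ± 0.05 with GW3965 and 0.42 ± 0.05 with T0901317, the last 4 called. In hepatocytes Fdft1 had 106 and 98.2 CPM with desmosterol, 126 and 112 CPM with DMHCA, 64.6 and 66.4 CPM with MePipHCA, 112 and 98.0 CPM with GW3965 and 112 and 101 CPM with T0901317, against 119 and 106 CPM with vehicle. There it fell with MePipHCA by 0.78 on the log2 scale (SE 0.11, adjusted p = 2.83e-05, edgeR).

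The Fdft1 row carries a limit in macrophages. Its last exon overlaps that of Ctsb, a lysosomal protease encoded on the opposite strand, by 774 bases (chr14:63145150-63145923, GENCODE M21 on GRCm38). Ctsb was among the abundant macrophage mRNAs, with 21747, 21096 and 21646 CPM with MePipHCA, against 19493, 19017 and 19958 CPM with vehicle, while in hepatocytes it had 997 and 909.7 CPM with MePipHCA, against 952 and 805 CPM with vehicle. Fdft1 counts were 1.43% to 1.95% of Ctsb counts in the 18 macrophage libraries and 6.48% to 15.5% in the 12 hepatocyte libraries. Ctsb itself was higher with all 5 ligands in macrophages, by 0.14 ± 0.04 with MePipHCA to 0.30 ± 0.04 with DMHCA, and was not called with MePipHCA in hepatocytes (0.12 ± 0.08). Over libraries of a cell type, log2 CPM of Fdft1 and Ctsb had a Pearson r of 0.79 in macrophages and -0.10 in hepatocytes; libraries of a group share their ligand. The headers state no strand option for the counting, so whether it kept reads of the 2 genes over these bases apart is not known. The part of Ctsb in the Fdft1 values was not tested.

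**Figure D3:**
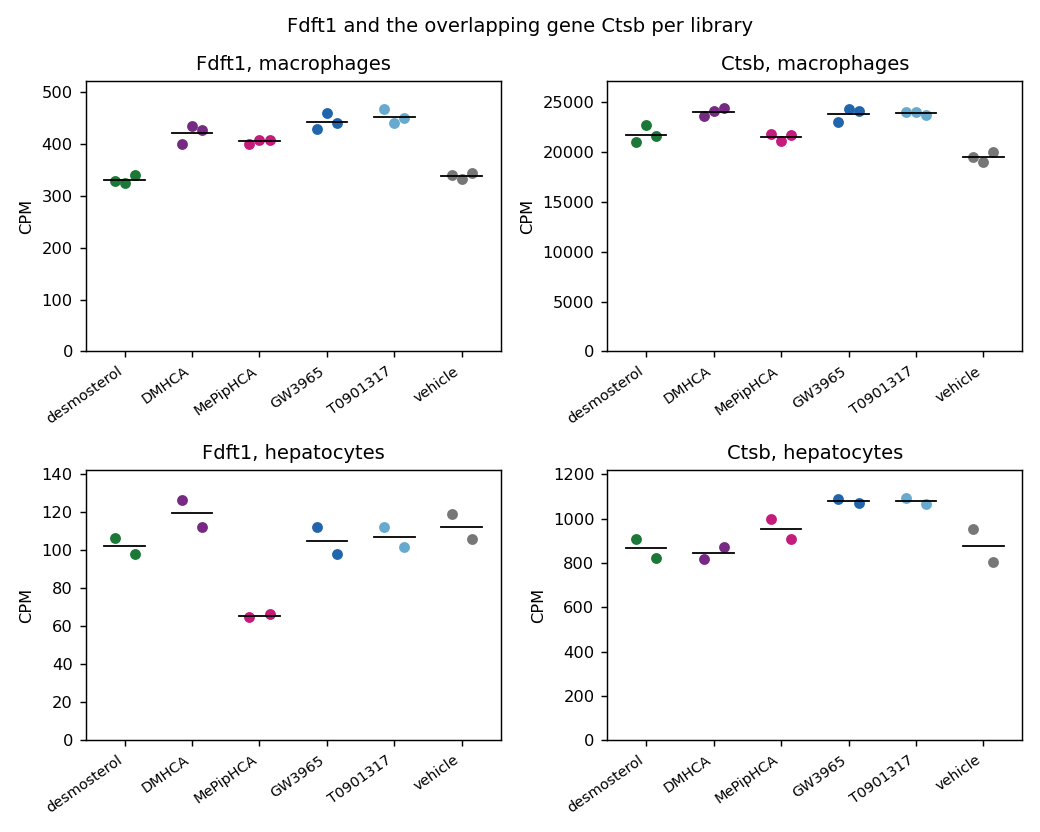
Level in CPM (y axis, linear from 0) of Fdft1 (left) and of Ctsb, which overlaps it on the other strand (right), in every macrophage library (top) and hepatocyte library (bottom) by ligand, with a bar at the group mean. In macrophages Ctsb lies between 19017 and 24350.3 CPM and Fdft1 between 325 and 467 CPM, and in hepatocytes Fdft1 is lowest with MePipHCA.

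Levels of different genes were compared per transcript length, as the deposited RPKM, in vehicle cells. In macrophages the order was Fdft1 (104 ± 2.84 RPKM), Hmgcs1 (87.0 ± 5.0), Mvd (39.2 ± 0.809), Fdps (19.6 ± 1.28), Mvk (13.0 ± 0.934), Pmvk (12.1 ± 0.709), Acat2 (8.01 ± 0.881), Ggps1 (4.89 ± 0.481) and Idi1 (0.852 ± 0.151; mean ± SD, n = 3). Mvk and Pmvk overlapped, and the other neighbours did not. The place of Fdft1 in this order carries the limit of its overlap with Ctsb, whose part in the value was not tested. In hepatocytes it was Hmgcs1 (295 ± 13.7 RPKM), Fdps (54.1 ± 4.56), Acat2 (37.1 ± 0.440), Fdft1 (24.3 ± 2.78), Pmvk (23.3 ± 1.91), Mvd (16.7 ± 2.72), Mvk (16.0 ± 1.03), Ggps1 (4.22 ± 0.577) and Idi1 (1.16 ± 0.470; mean ± SD, n = 2). There Fdft1 overlapped Pmvk and Mvd overlapped Mvk. Hmgcs1 stood near the top and Ggps1 and Idi1 at the bottom in both cell types; the tables were made separately, and no level was tested across them.

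The synthetic agonists were close to each other. In macrophages GW3965 lowered 1 member and raised 2 against vehicle (all genes: 6.69% lower, 6.54% higher), and T0901317 lowered 1 and raised 2 (all genes: 6.55% lower, 6.29% higher); in each case these were Hmgcs1 lower and Pmvk and Fdft1 higher, and the agonists share vehicle libraries. In hepatocytes GW3965 raised 1 and lowered 0 (all genes: 0.364% higher, 0.114% lower). T0901317 changed 0 in edgeR (all genes: 0.455% lower, 0.486% higher), with 4 members at an unadjusted p below 0.05 and 0 called by DESeq2. Set against each other directly at 1 uM, GW3965 and T0901317 differed in 0 of 9 members in macrophages and 0 of 9 in hepatocytes by edgeR. Hardly any gene differed here (all genes: 0.00866% lower and 0.00866% higher in macrophages, 0% and 0% in hepatocytes). Of the members 0 and 1 had an unadjusted p below 0.05, and DESeq2 called 0 and 0. In macrophages the 95% interval of this difference for Hmgcs1 was -0.12 to 0.11 and that for Fdps -0.27 to 0.22. The widest, for Idi1, was -0.61 to 0.90.

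The cholenamides DMHCA and MePipHCA, which differ in the amide, were compared at 1 uM, in 1 of 4 pairs of ligands tested per cell type. In macrophages 4 of the 9 members were lower with MePipHCA than with DMHCA (all genes: 12.1% lower). They were Fdps (-1.63 ± 0.26), Acat2 (-0.95 ± 0.27), Hmgcs1 (-0.81 ± 0.07) and Pmvk (-0.69 ± 0.21). Mvk and Mvd, which each fell with both compounds, were not called, with 95% intervals of -0.53 to 0.35 and -0.47 to 0.05. Idi1, which also fell with both, was not called either, at -0.64 on 12 counts with DMHCA and 7 with MePipHCA. The Pmvk call was lost without replicate 2 or 3 of DMHCA or replicate 1 or 2 of MePipHCA (adjusted p of 0.0532 to 0.0959, edgeR), and the Acat2 call without replicate 1 of DMHCA (0.0539) or replicate 1 of MePipHCA (0.0511). In hepatocytes 7 members were lower with MePipHCA than with DMHCA (all genes: 2.01% lower), from -0.86 ± 0.13 for Pmvk to -1.18 ± 0.11 for Acat2. Idi1 (-1.07 ± 0.38) and Ggps1 (-0.33 ± 0.21) were not called.

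Against the synthetic agonist T0901317 at the same dose, DMHCA had 7 members lower in macrophages (all genes: 2.87% lower), from -1.40 ± 0.18 for Mvk to -2.13 ± 0.16 for Fdps. The call for Idi1, -1.70 ± 0.50, was lost in the fits without any 1 replicate of DMHCA or without replicate 1 or 2 of T0901317 (adjusted p of 0.0502 to 0.148, edgeR). MePipHCA had 8 lower than T0901317 (all genes: 13.9% lower), with Fdps at -3.75 ± 0.20 and Fdft1 at -0.16 ± 0.05; the Fdft1 call was lost without replicate 1 of T0901317 (adjusted p = 0.0695, log2 fold change -0.14). In hepatocytes DMHCA differed from T0901317 in 0 of 9 members by edgeR (all genes: 0.546% lower, 0.44% higher), with 3 at an unadjusted p below 0.05 and 1 called by DESeq2. MePipHCA had 7 lower than T0901317 there (all genes: 2.91% lower), with Pmvk at -1.33 ± 0.13. Desmosterol was given at 10 uM and was not tested against the compounds given at 1 uM. Where its levels are ordered among theirs above, ligand and dose cannot be told apart.

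**Figure D4:**
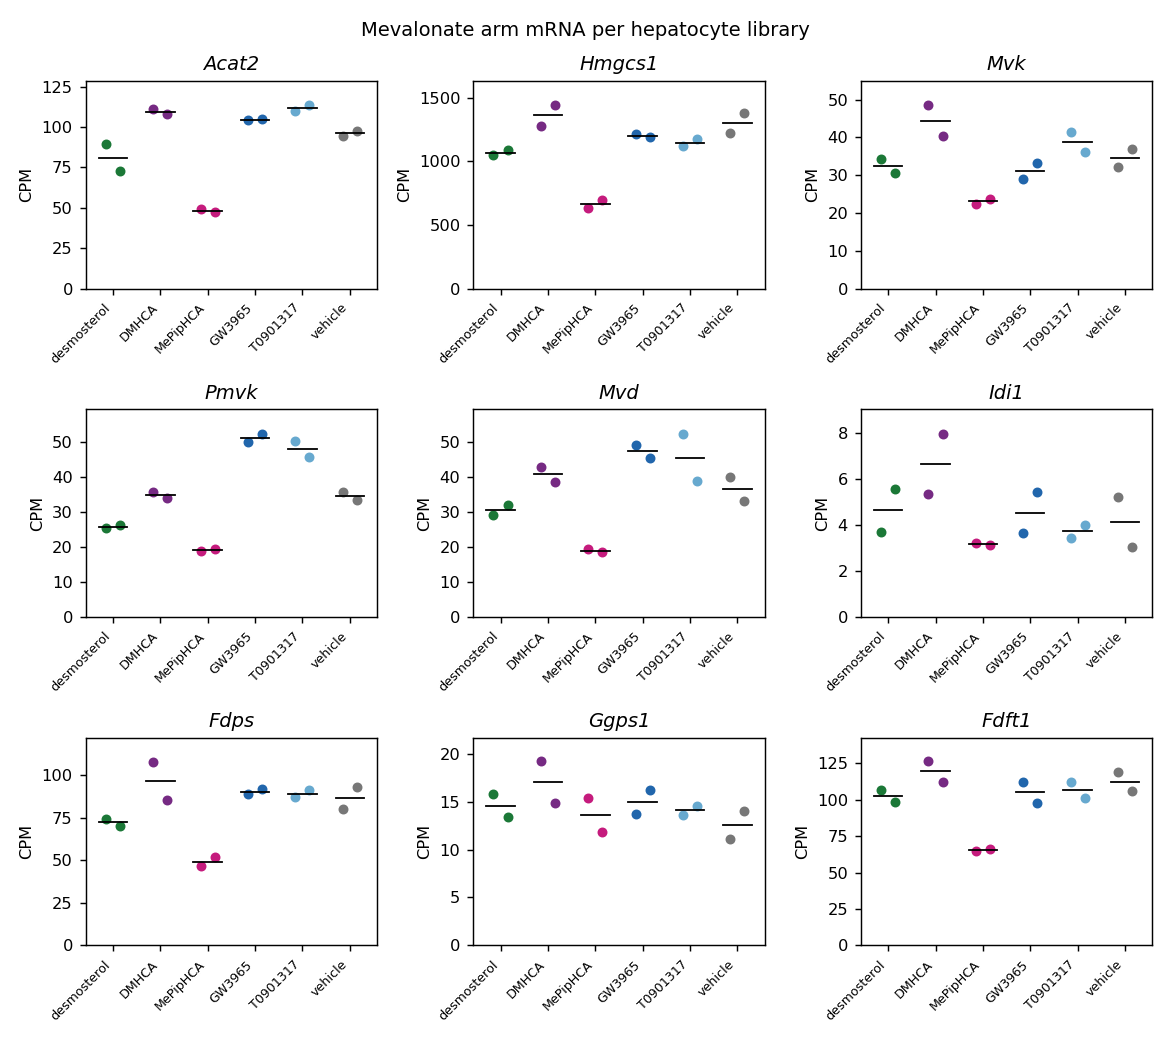
Level of each enzyme in CPM (y axis, linear from 0) in every hepatocyte library by ligand (x axis, 2 points per group, bar at the mean). MePipHCA gives the lowest mean of Acat2, Hmgcs1, Mvk, Pmvk, Mvd, Fdps and Fdft1, and its libraries lie below every other hepatocyte library for each of these.

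In hepatocytes the 9 members were set against vehicle as in macrophages. With desmosterol 0 were called (all genes: 0.159% lower, 0.205% higher), though 7 of the 9 had a negative log2 fold change, the median being -0.25. With DMHCA 0 were called, as were 0 of 13176 genes (all genes: 0% lower, 0% higher), and the 9 changes ran from 0.01 to 0.65, none negative. Over all genes 615 had an unadjusted p below 0.05 with DMHCA, and DESeq2 called 0. With MePipHCA 7 were lower and 0 higher (all genes: 1.38% lower, 0.789% higher), with a median of -0.81.

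Whether a ligand's change differed between the cell types was tested as an interaction with all 30 libraries fitted jointly, as the change in macrophages minus that in hepatocytes. For desmosterol 7 members had a lower change in macrophages and 0 a higher one (all genes: 1.09% and 1.44%), with Fdps at -2.07 ± 0.19 and Pmvk at -0.64 ± 0.19. For DMHCA it was 7 and 0 (all genes: 1.34% and 1.42%), with Hmgcs1 at -1.93 ± 0.10. For MePipHCA, which lowered the arm in both cell types, 7 members had a lower change in macrophages (all genes: 4.62%), with Fdps at -2.76 ± 0.25 and Acat2 at -1.73 ± 0.23. Fdft1 stood on the other side for MePipHCA, at 1.06 ± 0.10 (all genes higher: 5.04%). For the synthetic agonists Fdft1 alone of the 9 was called, at 0.47 ± 0.10 with GW3965 (all genes: 1.53% lower, 1.58% higher) and 0.51 ± 0.10 with T0901317 (all genes: 1.35% lower, 2.28% higher). The Fdft1 rows rest on transcripts of different length in the tables, 2853 bases for macrophages and 3685 for hepatocytes, and on the overlap with Ctsb. The call for Pmvk with desmosterol was lost without any 1 of the 10 libraries compared (adjusted p of 0.0675 to 0.163, edgeR). The call for Idi1 with MePipHCA was lost without replicate 1 or 2 of macrophage MePipHCA, replicate 1 or 3 of macrophage vehicle, replicate 1 or 2 of hepatocyte MePipHCA or replicate 2 of hepatocyte vehicle (0.0531 to 0.139), and with desmosterol without replicate 2 of hepatocyte desmosterol (0.0502). The call for Fdft1 was lost with GW3965 without replicate 2 of hepatocyte GW3965 (0.0924) or replicate 1 of hepatocyte vehicle (0.105), and with T0901317 without replicate 1 of hepatocyte vehicle (0.0524).

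**Figure D5:**
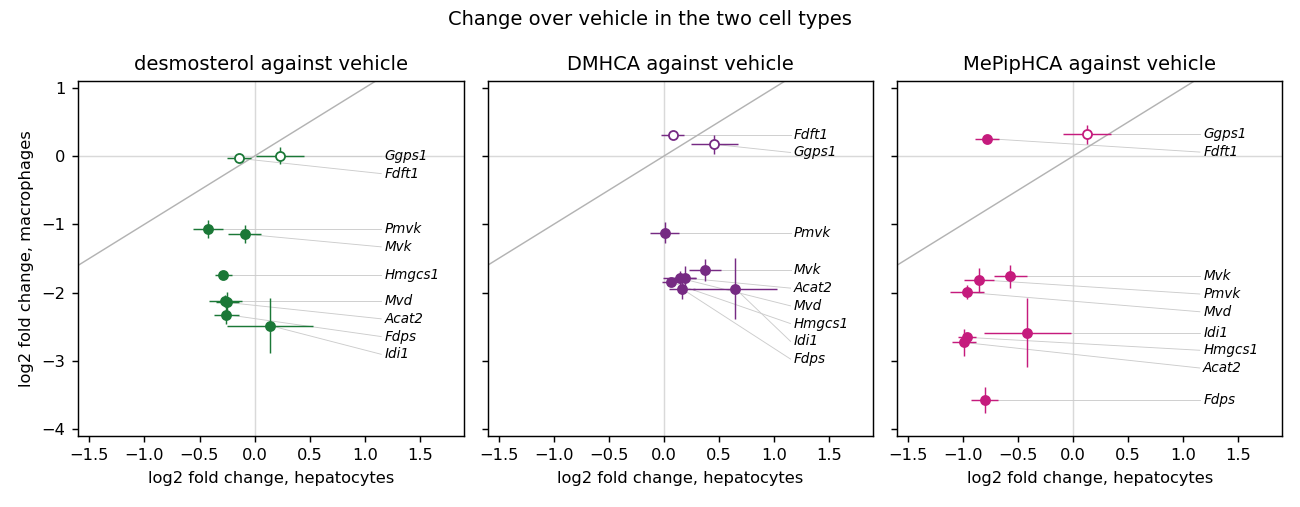
Log2 fold change over vehicle in macrophages (y axis) against that in hepatocytes (x axis) for the 9 enzymes, with SE bars and 1 panel per sterol; filled points have an adjusted p below 0.05 in the test of the difference between cell types, and the diagonal marks equal change. From Acat2 to Fdps the points lie below the diagonal in all 3 panels, and with MePipHCA Fdft1 lies above it.

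Enzymes after squalene fell with the sterols in macrophages as well. Of 11 post-squalene enzymes, which turn squalene into cholesterol, 11 were lower with desmosterol, 10 with DMHCA and 11 with MePipHCA in macrophages (all genes lower: 4.57%, 5.9% and 18.3%), and 0 were higher; medians were -1.64, -1.81 and -2.30. With MePipHCA the falls included those of Hsd17b7 (-3.42 ± 0.22) and the squalene epoxidase Sqle (-3.32 ± 0.10). With GW3965 and T0901317 3 each were lower (all genes: 6.69% and 6.55%), among them Sqle (-0.35 ± 0.07 and -0.26 ± 0.07). In hepatocytes 1 was lower with desmosterol (Lss, the lanosterol synthase, -0.45 ± 0.10), 0 with DMHCA, 8 with MePipHCA, 0 with GW3965 and 2 with T0901317 (Cyp51, -0.35 ± 0.09, and Msmo1, -0.32 ± 0.08), where Tm7sf2 was higher (0.65 ± 0.16). Over all genes in hepatocytes 0.159%, 0%, 1.38%, 0.114% and 0.455% were lower with the 5 ligands in that order. Lss (-1.08 ± 0.10) and Cyp51 (-0.86 ± 0.09) fell furthest there with MePipHCA. Where edgeR called 0, with DMHCA and GW3965, 1 and 4 of the 11 had an unadjusted p below 0.05 and DESeq2 called 0 and 1.

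Genes that use isoprenoids showed no fall against vehicle that passed the test. Of 12 such genes, among them prenyltransferases and enzymes of dolichol and ubiquinone synthesis, 0 were lower in macrophages with any ligand, and 2 were higher with desmosterol, 1 with DMHCA, 7 with MePipHCA, 2 with GW3965 and 2 with T0901317. Over all genes the shares higher were 4.93%, 5.8%, 17.2%, 6.54% and 6.29% in that order. The rises with MePipHCA included those of Rabggtb, a subunit of Rab geranylgeranyl transferase (0.56 ± 0.10), and Coq2 of ubiquinone synthesis (0.47 ± 0.14). With desmosterol Pdss1, which makes the ubiquinone side chain, had 1.00 ± 0.27. In hepatocytes 0 of the 12 were called with any ligand in edgeR. At an unadjusted p below 0.05 there were 0 with desmosterol, 0 with DMHCA, 2 with MePipHCA, 0 with GW3965 and 3 with T0901317, and DESeq2 called 0 with each of the 5. Median changes of the 12 lay between 0.04 and 0.36 with the sterols in macrophages.

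Upstream of the arm, Acss2 and Acly, which supply cytosolic acetyl-CoA from acetate and citrate, were lower with each sterol in macrophages. With MePipHCA they changed by -1.18 ± 0.21 and -0.70 ± 0.05, desmosterol gave -0.84 ± 0.17 for Acss2 and -0.54 ± 0.05 for Acly, and DMHCA gave -0.96 ± 0.19 and -0.50 ± 0.05. In hepatocytes MePipHCA lowered both (-0.73 ± 0.13 and -0.37 ± 0.08), while Acss2 was higher with GW3965 (0.61 ± 0.12) and T0901317 (0.62 ± 0.13). The mitochondrial thiolase Acat1 was higher with desmosterol in macrophages (0.38 ± 0.10).

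Copies and neighbours of the members were read as checks. Acat3, a close copy that lies beside Acat2, had 24.3, 24.8 and 26.5 CPM with MePipHCA, against 25.2, 26.0 and 23.8 CPM with vehicle in macrophages, and was not called with any ligand in either cell type. Tcp1, a chaperonin subunit whose span overlaps the end of Acat3, was higher with MePipHCA in macrophages by 0.17 ± 0.06 and not called otherwise. Idi2, the copy of Idi1, was at 0 in every library but 1 macrophage GW3965 library, with 1 count, and 1 hepatocyte DMHCA library, with 7 counts, and was not tested. Mmab, which encodes an enzyme of cobalamin metabolism, lies head to head with Mvk, with 278 bases between the 2 transcripts of the macrophage table. It was lower with the 3 sterols in macrophages, at -0.69 ± 0.13 with desmosterol, -0.58 ± 0.15 with DMHCA and -0.78 ± 0.15 with MePipHCA, and higher with T0901317, at 0.39 ± 0.13 (adjusted p = 0.0381, edgeR). In hepatocytes it had 6.95 and 11.7 CPM with MePipHCA, against 14.2 and 15.9 CPM with vehicle, and was not called (-0.67 ± 0.24).

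Members varied together over the libraries, as a description that rests on ligand groups shared by the points. Over 18 macrophage libraries the Pearson r of a member's log2 CPM with the mean of the other members ran from 0.91 for Mvk to 0.98 for Acat2 among the 7 from Acat2 to Fdps, and was -0.31 for Ggps1 and 0.23 for Fdft1. Over 12 hepatocyte libraries it was 0.79 to 0.97 for Acat2, Hmgcs1, Mvk, Pmvk, Mvd, Fdps and Fdft1, 0.43 for Idi1 and 0.28 for Ggps1. Among the 5 genes outside the arm whose pattern was most like the mean of the 9 in macrophages were Sc5d (r = 0.99), Msmo1 (0.98), Insig1 (0.98) and Cyb5b (0.98). In hepatocytes they were Lss (0.96), Baiap2 (0.94), Trp53inp2 (0.94), Pkm (0.94) and Dhcr7 (0.93). Fdft1 in macrophages was nearest to Apoe (0.93), Pcyox1 (0.92) and Pltp (0.92), and Ggps1 there to Brd8 (0.76), Arl13b (0.75) and Gem (0.75). In hepatocytes Idi1 was nearest to Tmem194 (0.86), Jak3 (0.85) and Slc15a4 (0.85), and Ggps1 to Hsf5 (0.82), Serpinf1 (0.81) and Capn1 (0.81).

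Some markers of other cells in the macrophage cultures moved with the ligands. All 6 markers of stellate cells and fibroblasts were lower with DMHCA (median -0.69) and with MePipHCA (median -1.51), and 0 of 6 with desmosterol (median 0.06), where 5.9%, 18.3% and 4.57% of all genes were lower in that order. Their summed level was 230.4 to 292 CPM with desmosterol, 144 to 205 CPM with DMHCA and 79.9 to 96.9 CPM with MePipHCA, against 243 to 309 CPM with vehicle, and none was at 0. Of 4 mesothelial markers 1, 1 and 3 were lower with the 3 sterols in that order, and their sum was 7.55 to 8.80 CPM with MePipHCA, against 20.0 to 25.7 CPM with vehicle. Of 2 endothelial markers tested, 1 was higher with each of the 5 ligands. Over all genes 4.93%, 5.8%, 17.2%, 6.54% and 6.29% were higher with desmosterol, DMHCA, MePipHCA, GW3965 and T0901317. The 1 T and NK cell marker tested was lower with MePipHCA, and the 1 neutrophil marker tested was lower with T0901317. Of 7 macrophage markers tested, 2 were lower and 2 higher with desmosterol, 2 lower and 1 higher with DMHCA, 5 lower and 0 higher with MePipHCA, and 4 lower and 1 higher with each of GW3965 and T0901317 (all genes lower with the agonists: 6.69% and 6.55%). With MePipHCA all 8 macrophage markers listed, tested or not, had a summed level of 12627 to 12854 CPM, against 16004 to 16081 CPM with vehicle. In hepatocytes 3 of 8 hepatocyte markers were lower with MePipHCA (all genes: 1.38%), with a sum of 26185 to 29329 CPM, against 28082 to 32633 CPM with vehicle, and 0 of 7 macrophage markers changed. In bulk RNA fewer cells of a type and less RNA per cell cannot be told apart, and the part of these cells in the enzyme values was not tested.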

How the data were processed

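STAR (alignment) and HOMER (counting) on the mouse build mm10 are named by the authors, per the submitters' processing notes, which give no versions used here. The deposited count tables hold raw exon counts, with a single RefSeq transcript for each gene, per the file headers, with replicates kept apart. The deposited RPKM tables give reads per kilobase and per library total, per the file headers, in columns headed FPKM; they used another transcript for Hmgcs1, Mvd and Fdps. The headers name no strand option.

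From the counts, edgeR 4.0.16 (R 4.3.3, limma 3.58.1) gave quasi-likelihood tests after filterByExpr and TMM scaling, with 1 mean per group, on 11544 genes in macrophages, 13176 in hepatocytes and 13700 in the joint fit of 30 libraries. P-values were adjusted by Benjamini-Hochberg over all genes of a comparison, and 0.05 was the threshold. SE was the log2 fold change divided by the square root of F. Comparisons were 10 against vehicle, 8 between ligands at 1 uM and 5 interactions. Replicates of a group differed by more than sampling noise, so none was counted as a duplicate. DESeq2 1.42.0, other scalings, filters and designs, and fits without each library were tried. Promoter bases came from RefSeq on GRCm38.p6.

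The members and lists were chosen with earlier results of these data known. Named are all 9 members, up to 3 genes of each pathway list by size of change among those called, copies and overlapping neighbours, the nearest patterns (5 genes, or 3 for a member with r under 0.5 with the others) and Abca1. Some genes that this rule would name are not reported here.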

Additional observations from a re-analysis of the deposited data

Results flagged for a closer look

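The effect of a ligand differed between macrophages and hepatocytes in the test of the difference itself for 24 values, each the log2 change in macrophages minus that in hepatocytes. With desmosterol they were -1.89 for Acat2, -1.46 for Hmgcs1, -1.05 for Mvk, -0.64 for Pmvk, -1.86 for Mvd, -2.64 for Idi1 and -2.07 for Fdps. With DMHCA they were -1.99 for Acat2, -1.93 for Hmgcs1, -2.06 for Mvk, -1.14 for Pmvk, -1.94 for Mvd, -2.60 for Idi1 and -2.13 for Fdps. With MePipHCA they were -1.73 for Acat2, -1.68 for Hmgcs1, -1.18 for Mvk, -0.95 for Pmvk, -1.01 for Mvd, -2.17 for Idi1 and -2.76 for Fdps, and 1.06 for Fdft1. With the synthetic agonists Fdft1 was the member with such a difference, at 0.47 with GW3965 and 0.51 with T0901317. Cell type, medium and date cannot be told apart in these differences.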

How the results depend on the processing

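Of 2706 values of single members under an alternative, 2648 kept their side of the threshold, 48 lost the call, 10 gained one and 0 turned a called direction. The 2648 include 77 values that were not called in either fit and changed sign. Counts of members were moved as follows. With library totals alone 2 members were lower with GW3965 in macrophages, against 1, and in hepatocytes 0 higher with GW3965, against 1, and 6 lower with MePipHCA, against 7, as Mvk was lost (adjusted p = 0.0515). With no filter 1 was lower with desmosterol in hepatocytes and 1 higher in DMHCA against T0901317 there, against 0 each. With only the groups compared 2 were lower with GW3965 and 2 higher with MePipHCA in macrophages, against 1 each. DESeq2 had 1 lower with desmosterol and 1 lower in DMHCA against T0901317 in hepatocytes, against 0 each. Over fits without 1 library, counts ranged from 1 to 2 lower with GW3965, 1 to 2 higher with T0901317 and 1 to 2 higher with MePipHCA in macrophages, and 2 to 4 lower in MePipHCA against DMHCA. In hepatocytes 0 were higher with GW3965 in each, 6 were lower with MePipHCA in each, and 0 to 1 were higher in DMHCA against T0901317, and for the interactions with GW3965 and T0901317 from 0 to 1 higher. Nothing in the labels says that replicate numbers pair the samples, and not every same-numbered pair of libraries had a correlation above 0.1 (-0.07 to 0.14, median 0.026, in macrophages, where other pairs had a median of -0.013, and -0.02 to 0.06 in hepatocytes), so the block was kept as an alternative. That 14 of 18 and 10 of 12 libraries were nearest to their own number is a hint of pairing from the data. Each group was centred on its mean beforehand, so libraries of a group are not independent in these counts. The 2 libraries of a hepatocyte group are then mirror images, and each such group counts double. With the replicate block, the change in call among members was Pmvk in the interaction with desmosterol (-0.65, adjusted p = 0.0562), a call also lost with no filter (0.102) and with only the groups compared (0.0756). RLE scaling, the stricter filter and the deposited RPKM in place of CPM moved none of these counts past 1.5 times. Over all genes in hepatocytes, calls with no filter numbered 139 with desmosterol, against 48 with the filter, 22 with DMHCA, against 0, 163 with GW3965, against 63, 256 with T0901317, against 124, and 271 in DMHCA against T0901317, against 130. DESeq2 gave 85, 201 and 200 for desmosterol, T0901317 and DMHCA against T0901317, the replicate block gave 1 for DMHCA, and only the groups compared gave 490 with MePipHCA, against 286, 107 with GW3965 and 63 in DMHCA against T0901317. GW3965 against T0901317 gave 9 in hepatocytes, against 0, and 15 in macrophages, against 2, with no filter, and 8 in macrophages with only the groups compared. Without 1 library the calls over all genes in hepatocytes ranged from 15 to 41 with desmosterol, 0 to 27 with DMHCA, 114 to 207 with MePipHCA, 28 to 54 with GW3965, 48 to 107 with T0901317, 177 to 779 in MePipHCA against DMHCA, 298 to 482 in MePipHCA against T0901317 and 59 to 168 in DMHCA against T0901317; in macrophages they ranged from 665 to 1042 with desmosterol and 898 to 1205 with DMHCA, the lowest of each without replicate 2 of vehicle, and 336 to 495 in DMHCA against T0901317; and for the interactions from 207 to 301 with desmosterol, 202 to 648 with DMHCA, 260 to 383 with GW3965 and 331 to 483 with T0901317. The causes were not tested. Depth limits Idi1 most, with 0 to 37 counts in macrophage sterol and vehicle libraries.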
